A study of Homo sapiens with 8 samples.

Results

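The metallothioneins and zinc response genes were followed in the prostate lines BPH-1 and WPMY-1 treated with RWF, a root bark extract of the tropical shrub Rauwolfia vomitoria. The set was defined by name as 9 genes, namely the metallothioneins MT1A, MT1E, MT1F, MT1G, MT1M, MT1X and MT2A, the zinc exporter SLC30A1 and the zinc sensor MTF1. Each gene was represented by its transcript cluster, the group of array probes summarised as 1 value, and only clusters annotated to that gene alone were accepted. With this rule 8 of the 9 genes had a cluster, of 22465 genes in the whole series, and MT1A had none annotated to it alone. Each of the 8 genes had 1 such cluster, so no choice between clusters had to be made.

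The series held 8 Affymetrix HTA 2.0 arrays, 2 in each of 4 groups. BPH-1 is an epithelial line derived from human benign prostatic hyperplasia and WPMY-1 is a myofibroblast line derived from human prostate stroma. Each line received RWF at 250 μg/ml or vehicle alone for 24 h, and the extract had been taken up in DMSO and diluted in PBS. BPH-1 cells were grown in RPMI medium and WPMY-1 cells in DMEM, both with serum and antibiotics, so line and medium cannot be told apart in any comparison between the lines. Each line is a single cultured line, and bulk RNA does not tell a change per cell from a change in the mixture of cells. Whether the 2 arrays of a group came from separate cultures is not stated. The p-values and intervals below therefore cover only array-to-array spread, and that spread may be technical.

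Metallothioneins are small cysteine-rich proteins that bind zinc, copper and cadmium, buffer free zinc in the cell and are induced by metals, glucocorticoids and oxidants. MTF1 is the zinc finger transcription factor that senses free zinc and binds metal response elements, short sites in the promoters of its targets. Among those targets are the metallothioneins and SLC30A1 (ZnT1), the exporter that carries zinc out of the cell across the plasma membrane. Normal prostate epithelium is known for accumulating zinc to unusually high levels, which makes this pathway of interest in prostate cells.

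The metallothionein genes lie side by side on chromosome 16. In RefSeq (GRCh38.p14) the order is MT4, MT3, MT2A, MT1L, MT1E, MT1M, MT1JP, MT1A, MT1DP, MT1CP, MT1B, MT1F, MT1G, MT1H, MT1IP and MT1X, with 3 uncharacterised loci among them. MTF1 and SLC30A1 both lie on chromosome 1. The paralogs are so alike in sequence that their clusters may share probes, and the deposited values carry no probe sequences with which to separate them. No metallothionein cluster carried several gene symbols, and none had the same 8 values as another cluster, which 2366 of the 67528 clusters in the series did.

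MTF1 binds metal response elements in promoters, so 3 promoters are printed here as the 250 bases before the annotated RefSeq start. The searched core of the metal response element was TGCACNC or TGCGCNC on either strand, and matches stand in capitals. MT2A (chr16:56608334-56608583, plus strand) held 7 matches, MT1X (chr16:56682220-56682469, plus strand) held 4, SLC30A1 (chr1:211579162-211579411, minus strand) held 1, and MTF1 held 0.
MT2A: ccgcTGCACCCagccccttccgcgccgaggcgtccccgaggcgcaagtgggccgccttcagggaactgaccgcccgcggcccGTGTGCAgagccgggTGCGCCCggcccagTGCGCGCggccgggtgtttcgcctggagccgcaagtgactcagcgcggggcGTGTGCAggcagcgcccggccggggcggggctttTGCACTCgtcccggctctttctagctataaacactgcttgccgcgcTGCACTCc
MT1X: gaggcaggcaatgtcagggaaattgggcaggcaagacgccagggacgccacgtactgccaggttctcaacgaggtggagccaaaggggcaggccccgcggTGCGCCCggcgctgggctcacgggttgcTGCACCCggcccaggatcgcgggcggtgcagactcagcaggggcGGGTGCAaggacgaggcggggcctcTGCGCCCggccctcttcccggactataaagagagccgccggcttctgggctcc
SLC30A1: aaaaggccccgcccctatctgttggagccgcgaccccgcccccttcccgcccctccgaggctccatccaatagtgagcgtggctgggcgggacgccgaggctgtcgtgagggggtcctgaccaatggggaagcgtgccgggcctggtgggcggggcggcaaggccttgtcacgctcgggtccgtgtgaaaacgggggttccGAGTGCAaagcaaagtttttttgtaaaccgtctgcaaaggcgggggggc
In the same window 24.8% of 35116 RefSeq promoters held at least 1 match, 0.37% held at least 4 and 0.0313% held at least 7. The matches in MT2A ran from 246 to 2 bases before the start, those in MT1X from 150 to 47 bases before it, and the single match in SLC30A1 lay 49 to 43 bases before it. A match is a description of the letters and does not show a bound site. Among the 8 measured members, 4 had a promoter in the table used here. Of metallothioneins outside the set, MT1H held 8 matches, and MT1B and MT4 held 3 each.

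Across all clusters, replicate arrays of a group correlated at 0.9947 to 0.9966, and array medians lay between 4.5 and 4.58 on the log2 scale. The labelled cell types were borne out by their markers that had a cluster (limma, adjusted p under 0.05). Vehicle-treated BPH-1 cells had higher values of 10 of the 11 epithelial markers, beside 8.82% of all clusters. Vehicle-treated WPMY-1 cells had higher values of 10 of the 11 stromal markers, beside 7.82%. The exceptions were CLDN4 and the myofibroblast gene ACTA2, at differences of -0.08 and 0.18 between WPMY-1 and BPH-1. After RWF, 4 of the 11 stromal markers were lower in WPMY-1, beside 0.905% of all clusters. In BPH-1 0 of the 11 epithelial markers passed, beside 0.04% of all clusters. All levels below are log2 values, differences are log2 differences and n is 2 arrays a group. A low value may be background, since the table carries no detection call, and levels of different genes were not set against each other.

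No metallothionein, MTF1 or SLC30A1 value changed significantly after RWF in either line. In BPH-1, 0 of the 8 members passed an adjusted p of 0.05 (limma, Benjamini-Hochberg over all clusters), beside 0.04% of all 67528 clusters. In WPMY-1, 0 of the 8 passed, beside 1.53% of all clusters. At an unadjusted p under 0.05 there was 1 member higher in BPH-1, MT1E, beside 2.74% of all clusters, and 1 lower in WPMY-1, MT1X, beside 8.36%. The RWF arrays did not overlap the vehicle arrays for 4 of the 8 members in BPH-1, 3 higher and 1 lower, and for 3 of the 8 in WPMY-1, all lower, beside 34.4% and 50.6% of all clusters. The median difference over the 8 members stood at 0.07 for BPH-1 and -0.08 for WPMY-1, against -0.0081 and 0.04 over all clusters. The 95% interval lay wholly within a 1.3-fold change in either direction for 5 of the 8 members in each line. For the remaining 3 a larger change could not be shown or set aside with 2 arrays a group. The intervals cover only array-to-array spread, which may be technical. For the 5 they therefore do not set aside a larger change between separate cultures.

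**Figure D1:**
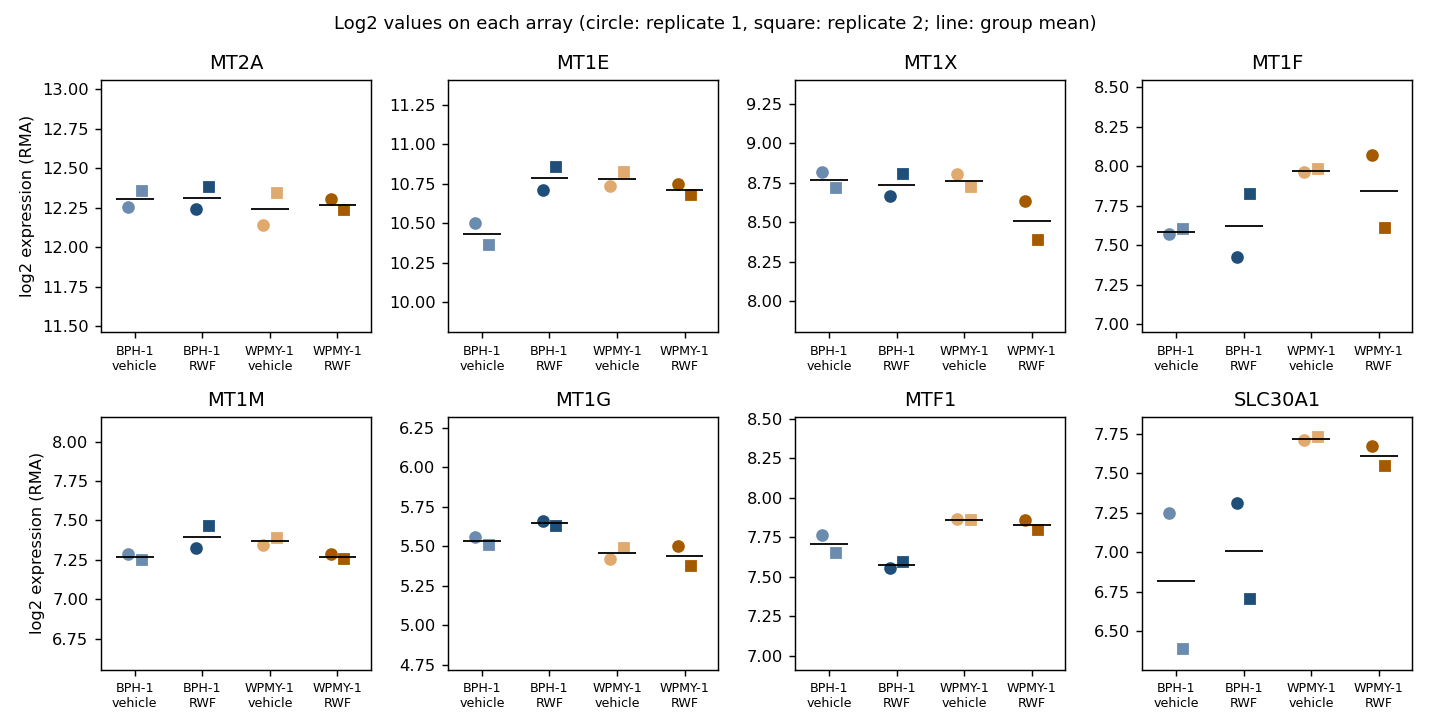
Log2 expression of the 8 measured members on each of the 8 arrays, with circles for replicate 1, squares for replicate 2 and a line at the mean of each group. All panels span the same width of log2 units. MT2A is flat over the 4 groups, MT1E is lowest in BPH-1 vehicle, and SLC30A1 is spread wide between the BPH-1 replicates and narrow in WPMY-1.

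MT2A encodes the metallothionein generally most abundant in human cells. Its values were 12.26 and 12.35 in BPH-1 vehicle, 12.24 and 12.38 in BPH-1 RWF, 12.14 and 12.34 in WPMY-1 vehicle, and 12.31 and 12.23 in WPMY-1 RWF. The 4 groups overlapped throughout, and their means spanned 0.07, less than the gap of 0.20 between the 2 WPMY-1 vehicle arrays. The RWF difference was 0.01 in BPH-1 (95% interval -0.22 to 0.23) and 0.03 in WPMY-1 (-0.19 to 0.25). Both intervals lay within 1.3-fold. The highest value anywhere in the table was 13.48, and the table does not say whether bright clusters were near saturation.

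MT1E, a functional isoform next but one to MT2A on the chromosome, gave the widest metallothionein difference in BPH-1. Its values were 10.50 and 10.36 in BPH-1 vehicle, 10.71 and 10.86 in BPH-1 RWF, 10.73 and 10.83 in WPMY-1 vehicle, and 10.75 and 10.68 in WPMY-1 RWF. Both BPH-1 RWF arrays lay above both BPH-1 vehicle arrays, as did 15.3% of all clusters, and lay within or just above the range of the 4 WPMY-1 arrays. The difference in BPH-1 was 0.36 (95% interval 0.15 to 0.56), or 1.28-fold, with an unadjusted p of 0.00403 and an adjusted p of 0.433 in limma. In WPMY-1 the groups overlapped and the difference was -0.07 (-0.28 to 0.14). From low to high the group means ran BPH-1 vehicle, WPMY-1 RWF, WPMY-1 vehicle and BPH-1 RWF, and only the first step, 0.28, was wider than the widest gap between replicates, 0.14.

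MT1X, the outermost member at the other end of the gene cluster, gave the largest difference among the metallothioneins in WPMY-1. Its values were 8.82 and 8.72 in BPH-1 vehicle, 8.67 and 8.81 in BPH-1 RWF, 8.81 and 8.72 in WPMY-1 vehicle, and 8.64 and 8.38 in WPMY-1 RWF. Both WPMY-1 RWF arrays lay below both vehicle arrays, as in 19.2% of all clusters, but stood 0.25 apart from each other. The difference was -0.25 (95% interval -0.49 to -0.02; unadjusted p = 0.0397, adjusted p = 0.24, limma), and without WPMY-1 RWF replicate 2 it was -0.13. In BPH-1 the groups overlapped, with a difference of -0.03 (-0.27 to 0.21).

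MT1F, MT1M and MT1G are further functional isoforms of the cluster. MT1F was 7.57 and 7.60 in BPH-1 vehicle, 7.42 and 7.83 in BPH-1 RWF, 7.96 and 7.98 in WPMY-1 vehicle, and 8.07 and 7.61 in WPMY-1 RWF. The vehicle arrays of each line lay close together and the RWF arrays lay on either side of them, so the RWF differences of 0.04 and -0.13 had wide intervals, -0.34 to 0.42 and -0.51 to 0.25.

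MT1M was 7.29 and 7.25 in BPH-1 vehicle against 7.33 and 7.46 in RWF, and 7.35 and 7.39 in WPMY-1 vehicle against 7.29 and 7.25 in RWF. The RWF arrays of MT1M therefore lay above vehicle in BPH-1, by 0.13 (-0.05 to 0.31), and below it in WPMY-1, by -0.10 (-0.28 to 0.08). Without BPH-1 RWF replicate 2 the BPH-1 difference was 0.06, and without replicate 1 it was 0.20. MT1G ranged only from 5.38 to 5.66 over the 8 arrays, with RWF differences of 0.11 in BPH-1 (-0.07 to 0.29) and -0.01 in WPMY-1 (-0.20 to 0.17).

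MTF1 itself was 7.76 and 7.65 in BPH-1 vehicle, 7.56 and 7.59 in BPH-1 RWF, 7.86 and 7.86 in WPMY-1 vehicle, and 7.86 and 7.79 in WPMY-1 RWF. The BPH-1 RWF arrays lay below the vehicle arrays, as in 19.1% of all clusters. The difference was -0.13 (95% interval -0.31 to 0.05), or -0.07 without vehicle replicate 1, and in WPMY-1 it was -0.03 (-0.21 to 0.14). All of these limits lie within 1.3-fold. MTF1 is controlled largely through zinc binding by the protein, which arrays do not measure.

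SLC30A1 was the member with the widest spread between replicates. It read 7.25 and 6.38 in BPH-1 vehicle and 7.32 and 6.71 in BPH-1 RWF, but 7.71 and 7.73 in WPMY-1 vehicle and 7.67 and 7.55 in WPMY-1 RWF. In both BPH-1 groups replicate 2 was lower than replicate 1, by 0.86 in vehicle and 0.61 in RWF, gaps reached or passed by only 0.0918% and 0.749% of all clusters. The BPH-1 groups overlapped, with an RWF difference of 0.19 and an interval from -0.42 to 0.81, and without vehicle replicate 2 it was -0.24. In WPMY-1 the RWF arrays lay below the vehicle arrays by -0.11 (-0.73 to 0.51). That interval is wide because 1 variance was fitted to all 4 groups, the scattered BPH-1 arrays included.

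**Figure D2:**
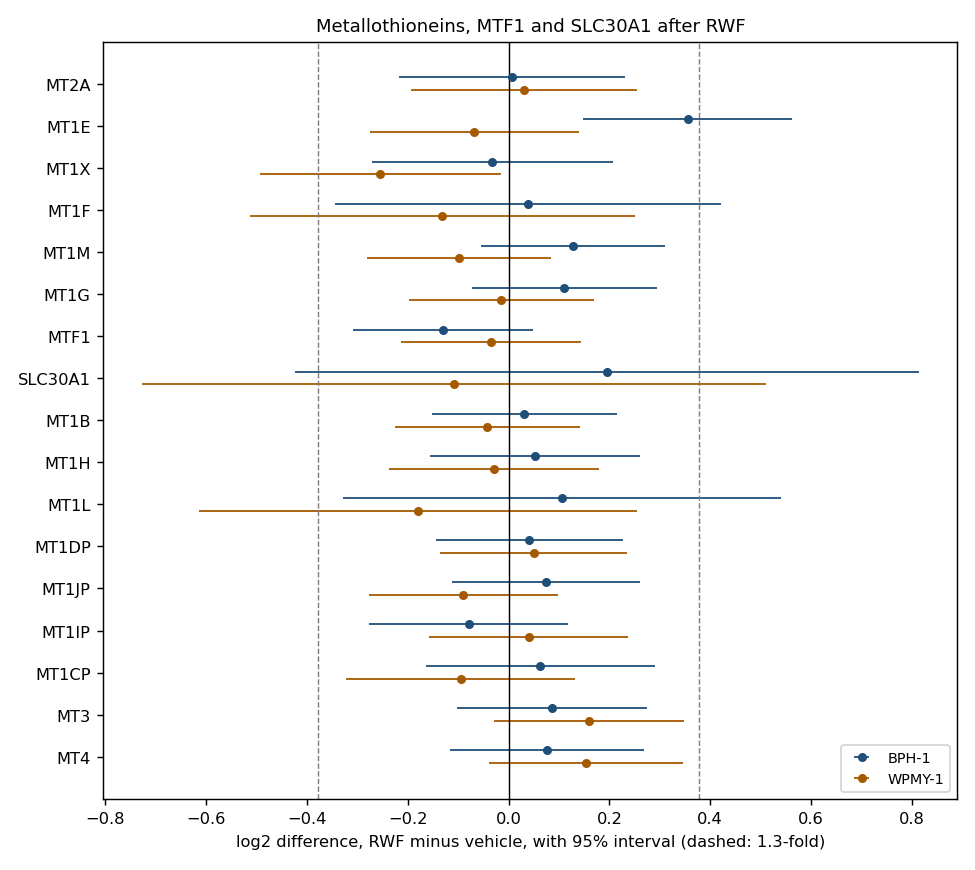
Log2 difference between RWF and vehicle for the 8 measured members and 9 other metallothionein genes in BPH-1 (blue) and WPMY-1 (orange). Points are fitted differences, bars are 95% intervals from limma, and dashed lines mark 1.3-fold. MT1E in BPH-1 and MT1X in WPMY-1 are the only genes whose interval does not cross 0, and neither passed after adjustment.

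Other metallothioneins were measured for 9 more genes of the family. They comprise MT1B and MT1H, the brain isoform MT3, the squamous epithelial isoform MT4 and the pseudogenes MT1L, MT1DP, MT1JP, MT1IP and MT1CP. Over all 15 metallothioneins, 0 passed in either line. In BPH-1 13 differences were above 0 and 2 below, from -0.08 to 0.36, with a median of 0.06 against -0.0081 over all clusters. In WPMY-1 5 were above 0 and 10 below, from -0.25 to 0.16, with a median of -0.04. Of all clusters 59.1% were above 0 in WPMY-1, with a median of 0.04. In each line 12 of the 15 intervals lay within 1.3-fold. MT3 had the smallest p among the 9 additional genes in both lines, with differences of 0.09 in BPH-1 (unadjusted p = 0.325, limma) and 0.16 in WPMY-1 (unadjusted p = 0.0865).

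These 15 signs are not 15 separate observations, since the genes may share probes and the arrays are the same. Replicates of a group also differed over the family. Replicate 2 exceeded replicate 1 for 13 of 15 metallothioneins in BPH-1 RWF, beside 48.4% of all clusters, and for 4 of 15 in WPMY-1 RWF, beside 45.7%. It did so for 7 of 15 in BPH-1 vehicle, beside 55.2%, and for 11 of 15 in WPMY-1 vehicle, beside 56.3%. The median gap in BPH-1 RWF, 0.12, was wider than the median RWF difference in that line.

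Whether the RWF difference itself differed between lines was examined with an interaction contrast, the WPMY-1 difference minus the BPH-1 difference. Of the 8 members 0 passed, beside 0.00592% of all clusters, and 1 had an unadjusted p under 0.05 in the lower direction, beside 3.41%. That member was MT1E, at -0.42 (95% interval -0.72 to -0.13; unadjusted p = 0.0101, adjusted p = 0.45, limma). The remaining contrasts were -0.30 for SLC30A1 (-1.18 to 0.57), -0.23 for MT1M, -0.22 for MT1X, -0.17 for MT1F, -0.13 for MT1G, 0.02 for MT2A and 0.10 for MTF1. The comparisons did not establish a line-specific response of any member.

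The vehicle-treated lines were compared in the same fit. MT1E was 0.35 higher in WPMY-1 vehicle than in BPH-1 vehicle (95% interval 0.14 to 0.56; adjusted p = 0.0305, limma), and it was the single member of 8 that passed, beside 16.6% of all clusters. At an unadjusted p under 0.05 there were 3 members higher in WPMY-1, beside 12.8% of all clusters. The MT1E call was lost when any 1 of the 4 vehicle arrays was left out, with differences from 0.28 to 0.42 and adjusted p from 0.0554 to 0.197, and held when an RWF array was left out. Both WPMY-1 vehicle arrays lay above both BPH-1 vehicle arrays for 5 of the 8 members, beside 24.9% of all clusters, and below for 1, beside 28.8%.

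The widest difference between lines was in SLC30A1, at 0.90 or 1.87-fold higher in WPMY-1 (95% interval 0.28 to 1.52; unadjusted p = 0.00964, adjusted p = 0.0561). The share of all clusters with every WPMY-1 array above every BPH-1 array was not computed, and the earlier 24.9% covers vehicle arrays only. In SLC30A1 all 4 WPMY-1 arrays, from 7.55 to 7.73, lay above all 4 BPH-1 arrays, from 6.38 to 7.32. The size rests on which BPH-1 vehicle array is used: it was 1.33 without replicate 1 (adjusted p = 0.00855) and 0.47 without replicate 2 (adjusted p = 0.287). Without either BPH-1 RWF array the difference stayed at 0.90. Those arrays do not enter it, and only the variance behind its adjusted p changed.

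MT1F was 0.39 higher in WPMY-1 vehicle (0.0047 to 0.77; unadjusted p = 0.0478, adjusted p = 0.179), and MTF1 was 0.16 higher (-0.02 to 0.34). MT2A and MT1X, at -0.06 and -0.0058, had group means that differed by less than the gap between replicates. The pseudogene MT1L stood apart in the other direction, at -0.51 (-0.95 to -0.08; unadjusted p = 0.0254, adjusted p = 0.115), and it ranged from -0.69 without BPH-1 vehicle replicate 1 to -0.34 without BPH-1 vehicle replicate 2. The pseudogene MT1IP lay at -0.22 (unadjusted p = 0.0311, adjusted p = 0.132). The family members therefore did not share 1 direction between the lines, with 5 of 15 metallothioneins above 0 and 10 below. Some of these, such as MT1X and MT1B (-0.0049), lay near 0, and the median over all clusters was -0.012.

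**Figure D3:**
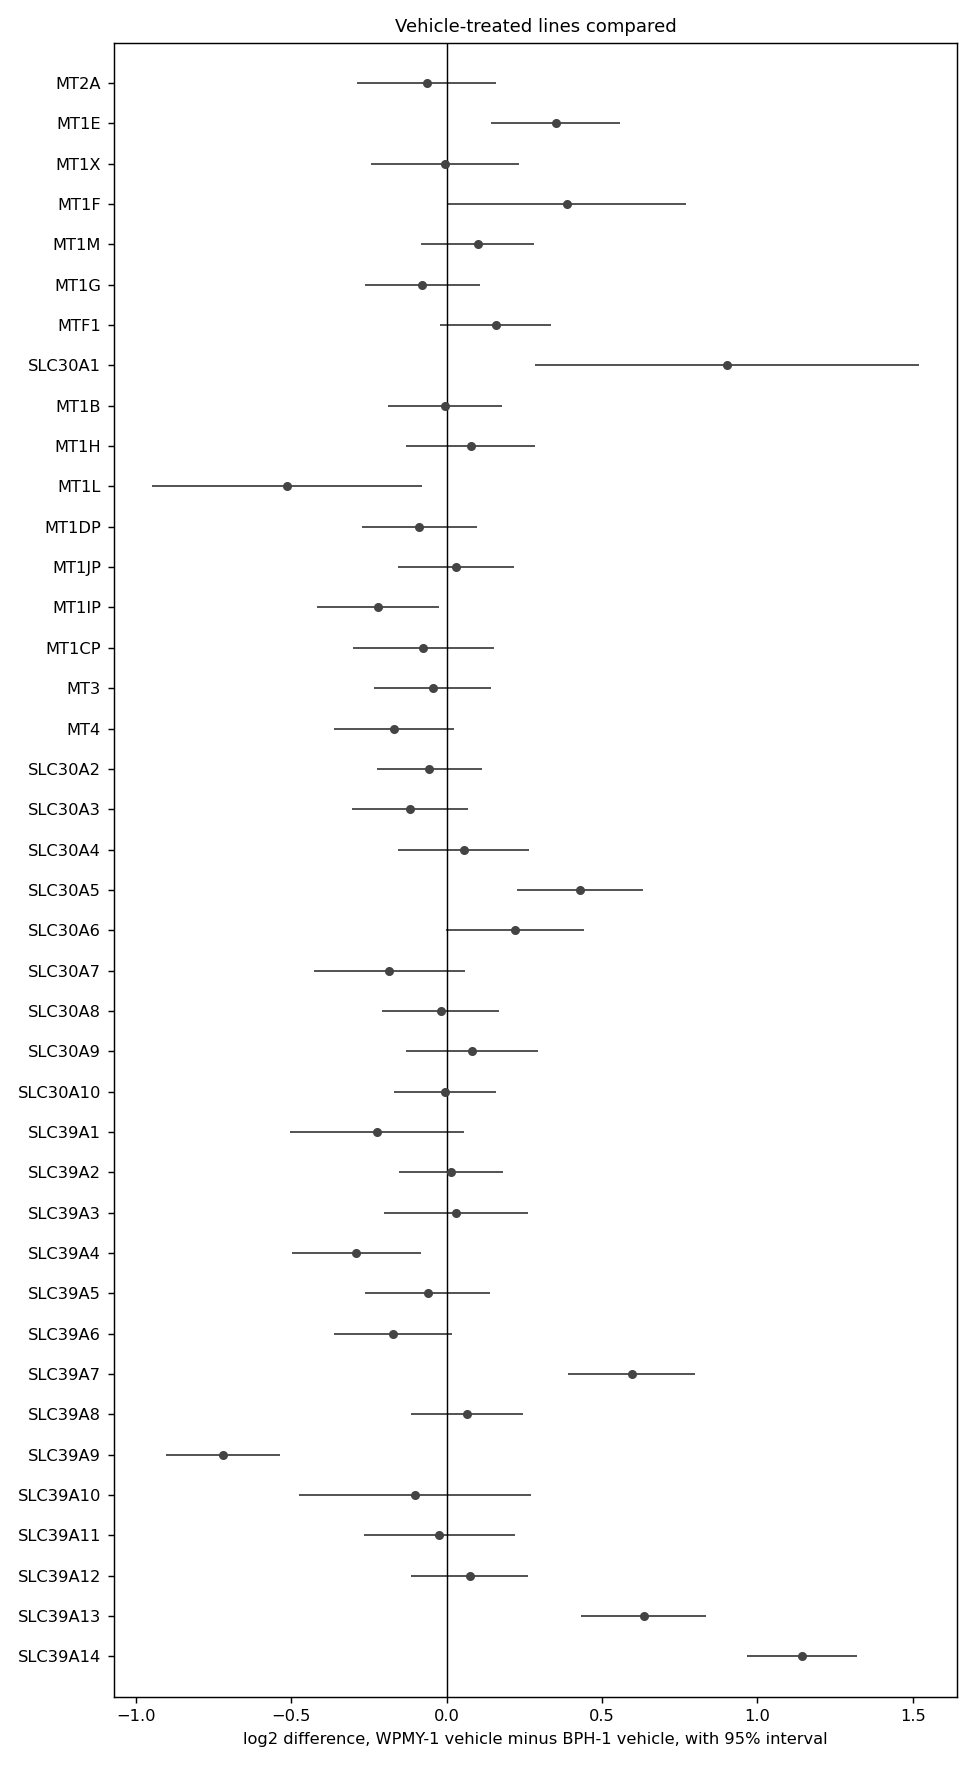
Log2 difference between WPMY-1 vehicle and BPH-1 vehicle for the 8 members, 9 other metallothioneins, 9 further zinc exporters and 14 zinc importers, with 95% intervals from limma. SLC39A14 lies farthest above 0 and SLC39A9 farthest below, while most metallothioneins have intervals that cross 0.

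No further zinc transporter passed for RWF in either line. Exporters of the SLC30 family generally move zinc out of the cytosol, to the outside or into organelles. Importers of the SLC39 (ZIP) family generally move it in. Both lists were drawn by family name, and what each member carries was not examined. Beyond SLC30A1, 9 exporters and 14 importers were measured, and the count passing was 0 in both families and both lines. In WPMY-1 SLC30A1 was at -0.11, while all 9 further exporters had differences above 0 as deposited, from 0.03 to 0.33. After quantile normalisation 9 of 9 did, from 0.0056 to 0.39, but after median centring only 6 of 9. As deposited, 59.1% of all clusters were above 0, with a median of 0.04. At the same time 3 exporters had an unadjusted p under 0.05, with 10.7% of all clusters higher at that level. Arrays did not overlap for 6 of the 9, beside 31.4% of all clusters higher in this way. Among these 6 were SLC30A8, at WPMY-1 means of 2.94 in vehicle and 2.97 in RWF, and SLC30A10, at 2.93 and 3.03. Those values lay below the array medians and may be background. The smallest p was that of SLC30A5, a transporter of the early secretory pathway, at 7.99 and 7.84 in BPH-1 vehicle, 8.01 and 7.94 in BPH-1 RWF, 8.41 and 8.27 in WPMY-1 vehicle and 8.69 and 8.66 in WPMY-1 RWF. Its RWF difference was 0.33 in WPMY-1 (0.13 to 0.54; adjusted p = 0.108) and 0.06 in BPH-1 (-0.14 to 0.27). In BPH-1 the exporter with the smallest p was SLC30A4, at 0.10 (-0.11 to 0.31).

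Among importers, SLC39A10, a plasma membrane zinc importer, had the lowest difference in both lines. Its values were 7.54 and 7.97 in BPH-1 vehicle, 7.03 and 7.34 in BPH-1 RWF, 7.78 and 7.52 in WPMY-1 vehicle, and 7.08 and 7.18 in WPMY-1 RWF. In each line both RWF arrays lay below both vehicle arrays. The differences were -0.57 in BPH-1 (-0.95 to -0.20; adjusted p = 0.533) and -0.52 in WPMY-1 (-0.90 to -0.15; adjusted p = 0.153), and neither passed. Leaving out 1 array moved the BPH-1 value between -0.79, without vehicle replicate 1, and -0.36, without vehicle replicate 2. The WPMY-1 value is given because of the BPH-1 value and was picked after it was seen. SLC39A8, an importer of zinc and manganese, was 0.31 higher after RWF in WPMY-1 (0.12 to 0.49; adjusted p = 0.101) and -0.04 in BPH-1.

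**Figure D4:**
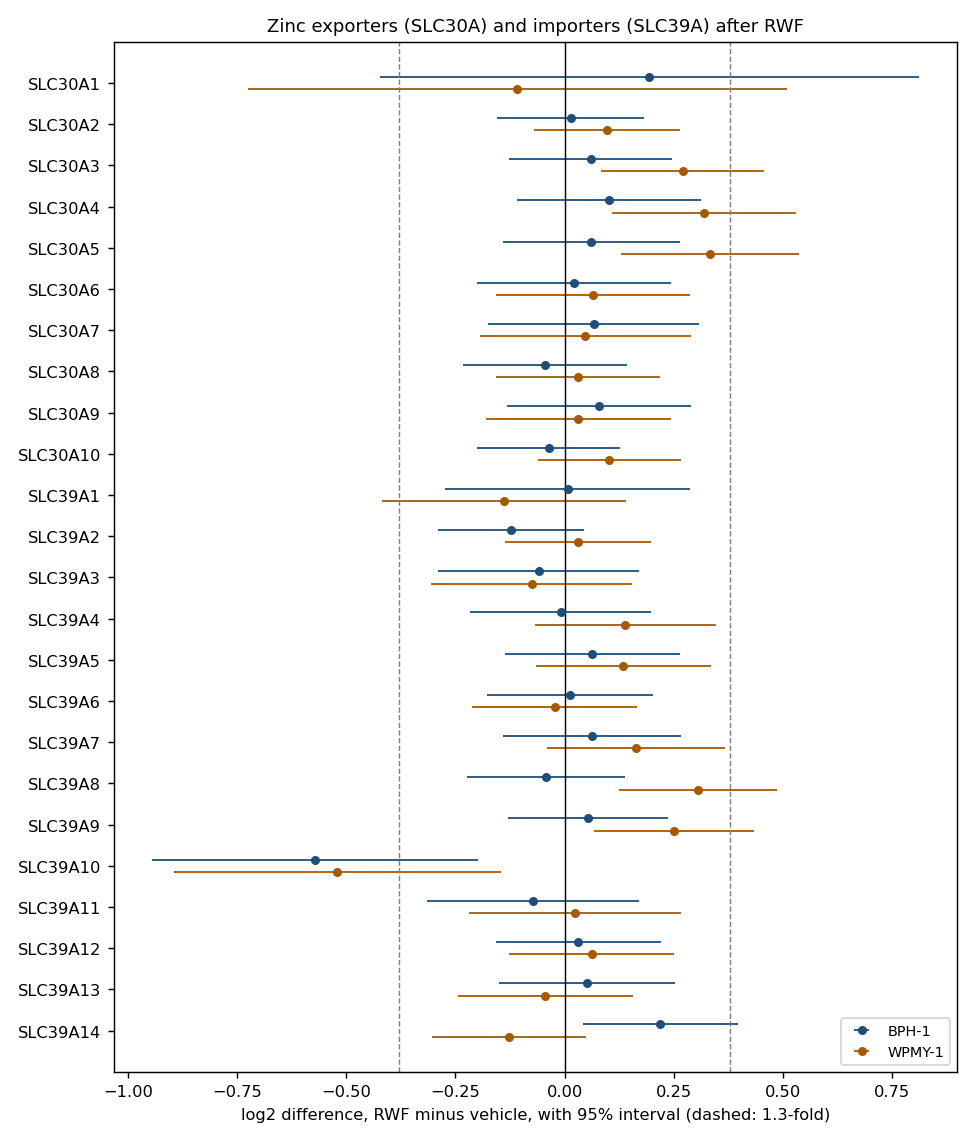
Log2 difference between RWF and vehicle for 10 zinc exporters, SLC30A1 included, and 14 zinc importers in BPH-1 (blue) and WPMY-1 (orange), with 95% intervals from limma and dashed lines at 1.3-fold. SLC39A10 lies lowest in both lines, SLC30A1 has the widest intervals, and no gene passed after adjustment.

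Between the vehicle-treated lines 3 of 14 importers were higher and 1 lower in WPMY-1, and 1 of 9 exporters was higher, beside 7.82% of all clusters called higher and 8.82% lower. SLC39A14, which carries zinc, manganese and iron, was 7.86 and 7.82 in BPH-1 vehicle and 9.0 and 8.98 in WPMY-1 vehicle, a difference of 1.14 (0.97 to 1.32; adjusted p = 2.45e-05) or 2.21-fold. SLC39A13 was 0.63 higher (adjusted p = 0.00136) and SLC39A7, which releases zinc from the endoplasmic reticulum, was 0.59 higher (adjusted p = 0.00208). SLC39A9 was lower by -0.72 (adjusted p = 0.000422), and SLC30A5 was 0.43 higher (adjusted p = 0.0112). SLC30A5 no longer passed with the BPH-1 vehicle array of replicate 2 left out (adjusted p = 0.0931), nor with that of WPMY-1 replicate 1 left out (adjusted p = 0.0667).

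Metallothioneins also answer to copper, oxidants, heavy metals and glucocorticoids, so genes of these pathways were examined beside them. Of 12 copper genes, 0 passed in BPH-1, beside 0.04% of all clusters, and 1 passed in WPMY-1 in the lower direction, beside 0.905%. That gene was SCO1, a mitochondrial copper chaperone for cytochrome c oxidase, which read 8.40 and 8.48 in WPMY-1 vehicle and 7.99 and 8.00 in RWF. SCO1 fell by 0.44 in WPMY-1 (-0.61 to -0.27; adjusted p = 0.0341), and its value in BPH-1 was -0.34 (adjusted p = 0.308). The SCO1 call was lost in each of the 8 fits that left out 1 array, with differences from -0.48 to -0.40 and adjusted p from 0.0611 to 0.149.

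Of 10 heavy metal and protein stress genes, 0 passed in BPH-1 and 1, in the higher direction, in WPMY-1, beside 0.625% of all clusters. TXNRD1, the cytosolic thioredoxin reductase, read 8.60 and 8.45 in WPMY-1 vehicle and 9.14 and 8.99 in RWF. TXNRD1 rose by 0.54 in WPMY-1 (0.32 to 0.76; adjusted p = 0.04), with 0.40 in BPH-1 (0.18 to 0.62; adjusted p = 0.409). That call, too, was lost in each of the 8 fits that left out 1 array.

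Of 10 iron genes, 0 passed in either line, where 0.04% (BPH-1) and 1.53% (WPMY-1) of all clusters did. FTL, the ferritin light chain, had the smallest p in BPH-1, with 10.80 and 10.87 in vehicle and 11.36 and 11.37 in RWF, a difference of 0.53 (0.35 to 0.70; adjusted p = 0.09). STEAP3, a metalloreductase, had the smallest p in WPMY-1, at -0.30 (adjusted p = 0.0949). HMOX1, heme oxygenase, belongs to both the iron and the heavy metal lists and did not pass.

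Of 9 glucocorticoid response genes, 0 passed in either line, read against the same shares of 0.04% and 1.53%. The smallest p belonged to ERRFI1, an inhibitor of EGF receptor signalling, in BPH-1 (-0.72, adjusted p = 0.181) and to KLF9, a transcription factor, in WPMY-1 (0.57, adjusted p = 0.0525). Between the vehicle-treated lines 4 of these 9 genes were higher in WPMY-1 and 1 was lower, beside 7.82% and 8.82% of all clusters. SGK1, a kinase that controls ion transport, was 1.66 higher (adjusted p = 7.17e-05), DUSP1, a phosphatase of MAP kinases, was 1.19 higher (adjusted p = 0.000661), and NR3C1, the glucocorticoid receptor, was 0.56 higher (adjusted p = 0.00488), while ERRFI1 was lower by -1.16 (adjusted p = 0.000438).

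The other metal and stress lists were read against the same shares between the vehicle-treated lines, 7.82% of all clusters higher and 8.82% lower in WPMY-1. Of the 12 copper genes 1 was higher and 3 were lower, with SLC31A1, the plasma membrane copper importer, at 0.41 (adjusted p = 0.0098), COX17, a copper chaperone, at -0.76 (adjusted p = 0.000438), ATP7B, a copper-exporting ATPase, at -0.54 (adjusted p = 0.00206) and SOD1, the copper- and zinc-dependent superoxide dismutase, at -0.32 (adjusted p = 0.0281). SLC31A1 no longer passed with the BPH-1 vehicle array of replicate 2 left out (adjusted p = 0.0817), and SOD1 no longer passed with any 1 of the 4 vehicle arrays left out (adjusted p from 0.0608 to 0.169). Of the 10 iron genes 3 were higher and 0 lower, with FTL at 0.76, the iron-sensing ACO1 at 0.54 and the iron chaperone PCBP2 at 0.49. Of the 10 heavy metal genes 2 were higher and 5 lower. In that list HSPA1A, an inducible chaperone, was at -1.06 and GCLM, a subunit of the enzyme that starts glutathione synthesis, at -0.96. DNAJB1, a co-chaperone, was at -0.49, against 0.77 for TXNRD1. HSPA1A was read by the brightest of its 4 clusters, and HSPA1B had no cluster annotated to it alone. DNAJB1 no longer passed with the BPH-1 vehicle array of replicate 1 left out (adjusted p = 0.0522).

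To find genes with like profiles, each of 22448 genes was centred on its own mean over the 8 arrays and set against MT2A and SLC30A1 by the root mean square difference. Nearest to MT2A were the 5S ribosomal pseudogene RNA5SP238 (0.0179), the inositol phosphatase gene INPP5E (0.0246) and ASB13 (0.0282), beside a spread of 0.0748 in MT2A itself. A gene with the same value on every array would lie 0.0748 from MT2A, so these 3 followed its small array-to-array differences. Nearest to SLC30A1 were the lymphatic growth factor VEGFC (0.1646), the DNA repair gene RAD50 (0.1914) and the mitochondrial carrier SLC25A33 (0.1925), beside its own spread of 0.4667. All 3 genes were higher in WPMY-1 than in BPH-1 and had replicate 2 below replicate 1 in both BPH-1 groups, as SLC30A1 did. Each set of 3 was picked from 22448 genes for closeness, so its likeness to MT2A or SLC30A1 follows from the choice. The 8 arrays are shared between all genes compared, and the profiles are a description without a test.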

How the data were processed

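The authors hybridised RNA to Affymetrix HTA 2.0 arrays, and the deposited values are log2 expression normalised by RMA per the labels, 1 value per transcript cluster and array. The RMA version and genome build are not given in the sources used here. Of 67528 clusters, 23781 carried 1 gene symbol in the platform annotation, 1543 several and 42204 none. All 8 arrays were fitted as 4 groups with limma 3.58.1 in R 4.3.3 (lmFit, eBayes), two-sided, with Benjamini-Hochberg adjustment over all clusters and a threshold of 0.05. The fit was tested on simulated data. Intervals come from the moderated statistic. No filter on low values was applied, and all 8 measured members also passed the filter tried as an alternative, which kept the brighter 33764 clusters. The number of arrays limits precision.

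Alternatives were quantile normalisation, median centring, the filter on dim clusters, 1 cluster or the mean of clusters per gene, a replicate block, variances fitted with a trend and robustly, the 2 lines fitted separately, the methods' t-test, same-valued clusters counted once, and each array left out.

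The genes named were all members, the other metallothioneins, from each list the genes past the threshold (at most 4 per comparison, by p) or else the one with the smallest p, and the 3 nearest profiles to MT2A and SLC30A1. Lists covered zinc exporters and importers, copper, iron, heavy metal stress, glucocorticoid response and prostate cell markers. A list gene with several clusters annotated to it alone was read by the brightest, by the mean of the 8 arrays. This held for SLC39A7 (6 clusters), HSPA1A (4), KRT8 (2) and DCN (2). The members and lists were chosen with earlier results of these data known. Promoters are from RefSeq, GRCh38.p14.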

Additional observations from a re-analysis of the deposited data

Results flagged for a closer look

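Among the genes named by the stated rule, there were 6 whose RWF arrays were on opposite sides of the vehicle arrays in the 2 lines, without overlap. In none of them did the interaction contrast (WPMY-1 difference minus BPH-1 difference, log2, limma) pass after adjustment. The metallothionein MT1M had a contrast of -0.23 (adjusted p = 0.619), from 0.13 in BPH-1 and -0.10 in WPMY-1. The metallothionein pseudogene MT1JP had a contrast of -0.16 (adjusted p = 0.705), from 0.07 and -0.09. The zinc, manganese and iron importer SLC39A14 had a contrast of -0.35 (adjusted p = 0.468), from 0.22 and -0.13. The copper- and zinc-dependent superoxide dismutase SOD1 had a contrast of 0.23 (adjusted p = 0.624), from -0.17 and 0.06. BAG3, a co-chaperone, had a contrast of 0.32 (adjusted p = 0.553), from -0.15 and 0.16. ERRFI1, the EGF receptor inhibitor, had the largest of these 6 contrasts, 0.91 (adjusted p = 0.282), from -0.72 and 0.19. Over all 102 genes tested in the lists, cell markers included, 13 met this condition, and the 7 not named by the rule were SLC30A10, HSPA6, ZBTB16, KRT5, KRT14, DCN and ACTA2, with adjusted interaction p from 0.292 to 0.712. Of all clusters, 34.4% had RWF and vehicle arrays that did not overlap in BPH-1 and 50.6% in WPMY-1, in either direction. By direction the shares were 15.3% higher and 19.1% lower in BPH-1, and 31.4% higher and 19.2% lower in WPMY-1. The share of all clusters on opposite sides in the 2 lines was not computed. The counts of 6 and 13 are therefore a description and no result about these genes.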

How the results depend on the processing

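No member passed for RWF in either line or in the interaction under any alternative run. Between vehicle-treated lines the count of members passing was 1, against 2 with dim clusters left out, with 1 cluster per gene and with the mean of a gene's clusters (SLC30A1 joined MT1E, where fewer features were tested), 0 with the methods' t-test, and 0 to 2 with 1 array left out. With the replicate number as a block the MT1E difference of 0.35 missed the threshold (adjusted p = 0.0651), SLC30A1 passed at 0.90 (adjusted p = 0.000844), SCO1 in WPMY-1 missed it (adjusted p = 0.0587) and KLF9 passed (adjusted p = 0.0325). The labels do not say what a number shares, and replicate deviations correlated at 0.12 in BPH-1 and -0.03 in WPMY-1 over 2 pairs each, so the block is no evidence of pairing. Small differences turned sign under rescaling: MT1G (0.0085) and MTF1 in WPMY-1 (0.0167) under quantile normalisation, the former between lines, and MT1X between lines (0.0440), MT2A in WPMY-1 (-0.0250) and the MT2A interaction (-0.0368) under median centring. With 1 array left out, RWF differences crossed 0 for MT1F (-0.16 to 0.24 in BPH-1, -0.36 to 0.10 in WPMY-1), MT1G (-0.0780 to 0.0498 in WPMY-1), MT1X (-0.101 to 0.0373 in BPH-1), MT2A (-0.0654 to 0.0782 in BPH-1, -0.0711 to 0.132 in WPMY-1) and SLC30A1 (-0.24 to 0.63 in BPH-1). Interactions crossed 0 for MT1F (-0.40 to 0.0624), MT2A (-0.0774 to 0.126) and SLC30A1 (-0.73 to 0.129), and line differences for MT1X (-0.0562 to 0.0446) and MT2A (-0.17 to 0.0369). Where the setting's construction does not show it, the cause was not tested. Over all clusters 6 were higher and 21 lower in BPH-1, against 0 and 2 under quantile normalisation, 2 and 15 after median centring, 32 and 45 without dim clusters, 27 and 12 with 1 cluster per gene, 0 and 1 without BPH-1 vehicle replicate 1, and 0 by the methods' t-test. The interaction had 4 calls, against 25 with 1 cluster per gene and 0 under either rescaling. In WPMY-1 422 were higher and 611 lower, against 270 and 823 after median centring, 102 and 141 with each line fitted alone, 716 and 1139 without dim clusters, 71 and 134 without WPMY-1 RWF replicate 1, and 0 by the methods' t-test. The t-test could not give an interaction, nor could each line fitted alone. Replicates lay up to 0.86 apart for SLC30A1, 0.46 for MT1F and 0.43 for MT1L.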
